A study of Mus musculus with 8 samples.

Results

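This report covers 10 genes of antigen presentation by MHC class II: the chains H2-Aa, H2-Ab1 and H2-Eb1, the invariant chain Cd74, the peptide exchange chains H2-DMa, H2-DMb1, H2-DMb2, H2-Oa and H2-Ob, and the transactivator Ciita. They were taken by symbol, and all 10 were found among the 23471 entries of each deposited table. RNA was sequenced from germinal centre (GC) B cells, which mutate their antibody genes and compete for help from T cells after immunization. The cells were B220+, high for FAS and high for GL7, and were sorted from C57BL/6 mice on day 13 after immunization with NP-KLH, a hapten coupled to a protein carrier. The Irf8 cKO group was Irf8flox/flox and the Ctrl group Irf8+/+, and both carried 1 allele of a Cre that is restricted to B cells. Each of 2 experiments gave 1 Irf8 cKO and 1 Ctrl library (n = 2 per group), and the sources used here give neither the age of the mice nor their number per library. The series has 4 more samples, of B cells activated with lipopolysaccharide in culture, not analysed here.

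MHC class II molecules carry peptides from endosomes to the cell surface, where CD4 T cells read them; in the germinal centre this decides how much T cell help a B cell gets. H2-Aa and H2-Ab1 pair into the I-A molecule. The invariant chain fills the groove of new class II molecules and steers them to endosomes, H2-DM then exchanges its last fragment for antigen peptides, and H2-DO, typical of B cells, restrains H2-DM. CIITA does not bind DNA itself. It docks on RFX, CREB and NF-Y proteins, which occupy the conserved X and Y boxes before class II genes and switch on chains, invariant chain and H2-DM together.

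The promoter letters of members are shown because the X and Y boxes are where these proteins dock. RefSeq windows (GRCm38.p6, from 250 bases before to 50 after a gene start) were found for 7 of the 9 members looked for, not for H2-Ab1 or Ciita, and Cd74 was not looked for. Each of the 7 held GATTGG, the core letters of the Y box, on either strand (for H2-DMa in 1 of its 2 windows), as did 16.1% of all 32851 windows. The letters AACNNATG, part of the X box, were searched on both strands as well and stood in 8.86% of all windows. The motifs do not overlap where both were counted: AACNNATG followed by GATTGG on the same strand, starting within 60 bases, was found in H2-Eb1, H2-DMb1, H2-DMb2 and H2-Ob, and in 0.137% of all windows (45). The letters searched were chosen after these promoters had been read, so the members' counts support nothing. The stretches below run 5′ to 3′ on the strand of each gene, with 60 bases before GATTGG and 10 after it, and capitals mark both motifs.
H2-Aa (chr17:34287857-34287932, minus strand): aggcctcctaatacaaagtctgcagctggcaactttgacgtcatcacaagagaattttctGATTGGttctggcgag
H2-Eb1 (chr17:34305747-34305822, plus strand): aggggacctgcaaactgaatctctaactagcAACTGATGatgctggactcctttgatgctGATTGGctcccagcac
H2-DMb1 (chr17:34153069-34153144, plus strand): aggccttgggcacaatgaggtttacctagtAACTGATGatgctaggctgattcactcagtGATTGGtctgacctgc
H2-DMb2 (chr17:34145098-34145173, plus strand): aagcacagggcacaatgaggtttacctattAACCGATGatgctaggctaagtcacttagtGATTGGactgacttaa
H2-Oa (chr17:34092275-34092350, plus strand): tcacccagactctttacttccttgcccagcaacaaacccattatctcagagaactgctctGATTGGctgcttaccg
H2-Ob (chr17:34238787-34238862, plus strand): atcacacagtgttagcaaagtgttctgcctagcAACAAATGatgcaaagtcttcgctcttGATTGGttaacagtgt
GATTGG began 44 (H2-Oa) to 91 (H2-DMb2) bases before the gene start, and the 2 motif starts lay 27 to 30 bases apart in the 4 genes that held both. H2-Aa, H2-Oa and both windows of H2-DMa lacked the X letters as searched. These matches describe the sequence and are not measurements of binding.

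Levels were deposited as RPKM, read counts divided by transcript length and by the mapped total, and totals of 63.05 M to 76.15 M reads (M, mega) were estimated from the spacing of low values. Of these reads an estimated 10.6% and 7.07% fell in exons of genes other than 45S ribosomal RNA in Irf8 cKO 1 and 2, and 12.7% and 11.3% in Ctrl 1 and 2. Irf8 cKO 2 stood apart, with 4846 genes at 1 RPKM or more against 6172 to 6567 in the other libraries and the highest 45S level. The deposited values of all genes were displaced in both experiments, and further in experiment 2, which holds that library. Over 6447 tested genes the median Irf8 cKO level was 84.2% of Ctrl in experiment 1 and 58.6% in experiment 2. Median-of-ratios scaling, which divides each library by its typical ratio to the others, brought these to 96.7% and 97.7% and left a median log2 ratio of -0.03 over all tested genes, against -0.35 as deposited. The log2 ratios of the 10 genes are given both ways. Irf8 itself, the gene the cross targets, measured 20.6 and 11.6 RPKM in the Irf8 cKO libraries and 14.5 and 14.9 in the Ctrl libraries (log2 ratio 0.08 ± 0.35, adjusted p = 0.880, limma; 0.51 ± 0.17 after scaling, adjusted p = 0.475). As deposited Irf8 cKO 1 was the highest library and Irf8 cKO 2 the lowest, and after scaling both Irf8 cKO libraries lay above both Ctrl libraries. That is a value over all its exons and does not check the genotype labels. Directions are those of the libraries as labelled.

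In every library the invariant chain and the I-A chains were among the most abundant transcripts. Cd74 ranked 2 or 3 of all entries, H2-Aa 4 to 7 and H2-Ab1 8 to 10. The 10 genes together summed to 989.6 and 578 RPKM in the Irf8 cKO libraries, against 1660 and 1419 in the Ctrl libraries. After scaling the sums were 926 and 844 against 1354 and 1242. All 10 passed the filter for testing, which was 1 RPKM or more in at least 2 libraries.

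**Figure D1:**
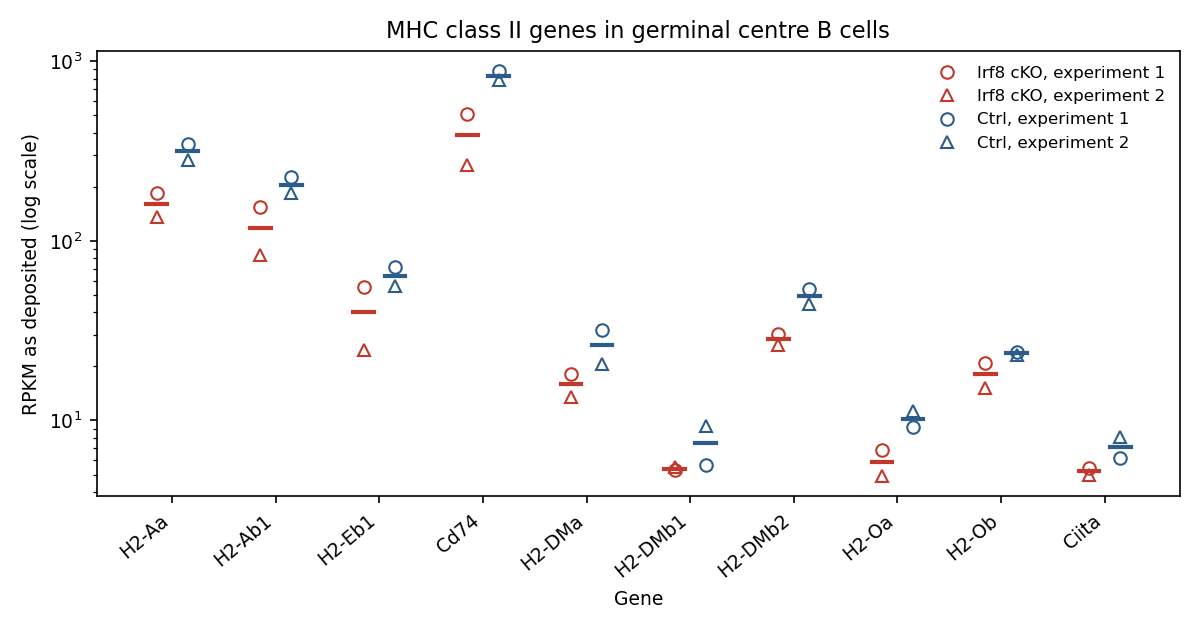
RPKM as deposited (log scale) of the 10 genes in the 4 libraries, Irf8 cKO in red left of Ctrl in blue, with circles for experiment 1, triangles for experiment 2 and bars for the group means (n = 2). In each gene both Irf8 cKO points lie below both Ctrl points, with levels down to 4.90 RPKM (H2-Oa) and the highest at 882 RPKM (Cd74).

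Taken as deposited, each of the 10 genes was lower in both Irf8 cKO libraries than in both Ctrl libraries, so that no groups overlapped. With the displacement of all genes, 44.7% of the tested genes did the same, and 71.2% were lower within both experiments. One member, Cd74, fell past the threshold (limma with the experiment as a block, Benjamini-Hochberg adjusted over all genes), against 1.10% of the tested genes called lower (71 of 6447). At an unadjusted p under 0.05, 6 of the 10 were lower, against 18.6% of all. The median log2 ratio of RPKM + 1 was -0.74 over the 10 genes and -0.35 over all tested genes.

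After scaling the 10 genes split. Lower values within both experiments held for 6 of 10 (H2-Aa, H2-Ab1, H2-Eb1, Cd74, H2-DMb2 and H2-Oa), against 33.1% of the tested genes. Groups did not overlap for H2-Aa, H2-Ab1, Cd74, H2-DMb2 and H2-Oa, 5 of 10, against 18.4%. For H2-DMb2 the closest values nearly met, at 38.3 RPKM in Irf8 cKO 2 and 38.7 in Ctrl 2. None passed the threshold (0 of 10, and 0% of all tested genes called lower), and none had an unadjusted p under 0.05 (5.93% of all, 382 lower genes and 282 higher by limma). The median log2 ratio was -0.30 over the 10 genes and -0.03 over all tested genes. With size factors taken only from genes at 1 RPKM or more in all 4 libraries, limma called 26 genes lower and 15 higher, and again 0 of the 10.

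The invariant chain had the lowest log2 ratio of the 10, although in experiment 1 alone H2-Aa and H2-DMb2 stood lower. As a percentage of Ctrl in experiment 1, H2-DMa was just below Cd74 as well, at 57.0% against 57.7% as deposited. Cd74 measured 508 and 263 RPKM in the Irf8 cKO libraries, against 882 and 781 in the Ctrl libraries, or 386 ± 173 and 831 ± 71.1 (mean ± SD, n = 2 each). The Irf8 cKO library of experiment 2 was the lowest, at 33.7% of its Ctrl partner, and that of experiment 1 stood at 57.7%. The log2 ratio was -1.18 ± 0.23 (SE; limma, adjusted p = 0.000179), and 0.388% of the tested genes had one as low. After scaling the levels were 476 and 384 RPKM against 719 and 683, still apart, with a log2 ratio of -0.71 ± 0.43 (adjusted p = 0.597). The SE as deposited comes from a variance trend over genes of like level, since the fit gave a gene's own spread no weight. Fitted without the block the log2 ratio stayed at -1.18 with an adjusted p of 0.614. Leaving out Irf8 cKO 1, Irf8 cKO 2, Ctrl 1 or Ctrl 2, without the block, gave log2 ratios of -1.65, -0.71, -1.09 and -1.27 as deposited, with adjusted p of 0.112, 1.00, 1.00 and 0.912 by limma.

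H2-Aa, the alpha chain of I-A, came next. It measured 185 and 136 RPKM in the Irf8 cKO libraries and 348 and 282 in the Ctrl libraries (161 ± 34.5 and 315 ± 47.1, mean ± SD, n = 2 each). Both experiments placed the Irf8 cKO library near 50% of its partner, at 53.2% and 48.5%, and after scaling at 61.0% and 80.8%. The log2 ratio was -0.97 ± 0.28 (adjusted p = 0.0502, limma), just outside the threshold, and -0.51 ± 0.32 after scaling (adjusted p = 0.609). H2-Ab1, the beta chain, measured 153 and 83.4 RPKM against 228 and 184, with a log2 ratio of -0.85 ± 0.30 (adjusted p = 0.140) and -0.38 ± 0.28 after scaling (adjusted p = 0.647). For H2-Ab1 the scaled level was close in both experiments, at 77.2% and 75.7% of Ctrl, and the groups stayed apart. H2-Aa passed the threshold with a pseudocount of 0.1 (adjusted p = 0.0383) and without a variance trend (adjusted p = 0.0114), and H2-Ab1 passed without a variance trend alone (adjusted p = 0.0329).

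H2-Eb1 encodes the beta chain of the I-E molecule. It measured 55.5 and 24.7 RPKM in the Irf8 cKO libraries and 71.8 and 56.1 in the Ctrl libraries. The groups lay close together, with Irf8 cKO 1 only just below Ctrl 2, and after scaling they overlapped. Its log2 ratio was -0.76 ± 0.34 (adjusted p = 0.233, limma) and -0.30 ± 0.21 after scaling (adjusted p = 0.632). Without Irf8 cKO 1 the log2 ratio of H2-Eb1 was -1.32 as deposited and -0.56 scaled, and without Irf8 cKO 2 it was -0.19 and -0.05. C57BL/6 mice are known to lack a working E alpha chain, the partner of this beta chain. The tables list that gene as the pseudogene H2-Ea-ps, at 0.367 and 0.119 RPKM in the Irf8 cKO libraries and 0.538 and 1.07 in the Ctrl libraries, under the filter for testing. H2-Eb2, a further E beta gene of the locus, measured 2.95 and 1.15 against 3.25 and 4.59 RPKM, and its log2 ratio of -0.74 did not pass (adjusted p = 0.189, limma; -0.43 after scaling, adjusted p = 0.575).

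For the alpha chain of H2-DM and its more abundant beta chain, the scaled Irf8 cKO level as a percentage of Ctrl was lower in experiment 1 than in experiment 2. H2-DMa, the alpha chain of the exchange factor, measured 18.2 and 13.6 RPKM in the Irf8 cKO libraries and 31.9 and 20.6 in the Ctrl libraries. After scaling the Irf8 cKO level was 65.5% of Ctrl in experiment 1 and 110% in experiment 2, so that the groups overlapped. H2-DMb2, a beta chain, measured 30.3 and 26.2 against 53.9 and 44.2 RPKM, and its scaled level was 64.6% of Ctrl in experiment 1 and 99.0% in experiment 2. The log2 ratios as deposited were -0.67 ± 0.35 for H2-DMa and -0.77 ± 0.35 for H2-DMb2 (adjusted p = 0.271 and 0.233, limma), and after scaling -0.23 and -0.31 (adjusted p = 0.736 and 0.647). With 1 library per group in each experiment, the difference between experiments could not be tested.

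H2-DMb1, the other DM beta gene, had lower RPKM than H2-DMb2 in every library. It measured 5.32 and 5.49 RPKM in the Irf8 cKO libraries and 5.62 and 9.35 in the Ctrl libraries. Irf8 cKO 1 and Ctrl 1 were nearly equal, and Ctrl 2 alone was high. The log2 ratio was -0.37 ± 0.32 (adjusted p = 0.447, limma) and 0.03 ± 0.15 after scaling (adjusted p = 0.947). The split of reads between the beta genes is uncertain: 27.2% of the stretches of 50 bases in the H2-DMb1 transcript recur in H2-DMb2, and 26.8% the other way (GENCODE M21). No other member shared such a stretch with another gene.

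The H2-DO chains parted after scaling. H2-Oa, the alpha chain, measured 6.87 and 4.90 RPKM in the Irf8 cKO libraries and 9.24 and 11.3 in the Ctrl libraries, and its groups stayed apart after scaling at 6.43 and 7.15 against 7.53 and 9.84. H2-Ob, the beta chain, measured 21.0 and 15.2 RPKM against 24.2 and 23.1. Once scaled, H2-Ob stood at 99.5% and 110% of Ctrl in the experiments, and its groups overlapped. The log2 ratios were -0.72 ± 0.33 for H2-Oa and -0.38 ± 0.35 for H2-Ob (adjusted p = 0.239 and 0.466, limma), and -0.31 and 0.06 after scaling (adjusted p = 0.549 and 0.922).

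Ciita, the transactivator, stood near the median of all genes. It measured 5.44 and 4.97 RPKM in the Irf8 cKO libraries and 6.19 and 8.06 in the Ctrl libraries (5.21 ± 0.331 and 7.12 ± 1.32, mean ± SD, n = 2 each). The groups did not overlap as deposited, with Ctrl 2 well above the others. After scaling the Irf8 cKO level was 101% of Ctrl in experiment 1 and 103% in experiment 2. Both libraries of experiment 2 were then the higher, at 7.255 RPKM (Irf8 cKO) and 7.05 (Ctrl), against 5.09 and 5.05 in experiment 1. The log2 ratios of Ciita were -0.38 ± 0.32 (adjusted p = 0.436, limma) and, after scaling, 0.02 ± 0.15 (adjusted p = 0.967). The single value joins 3 RefSeq transcripts, so the use of its separate promoters cannot be read from it.

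**Figure D2:**
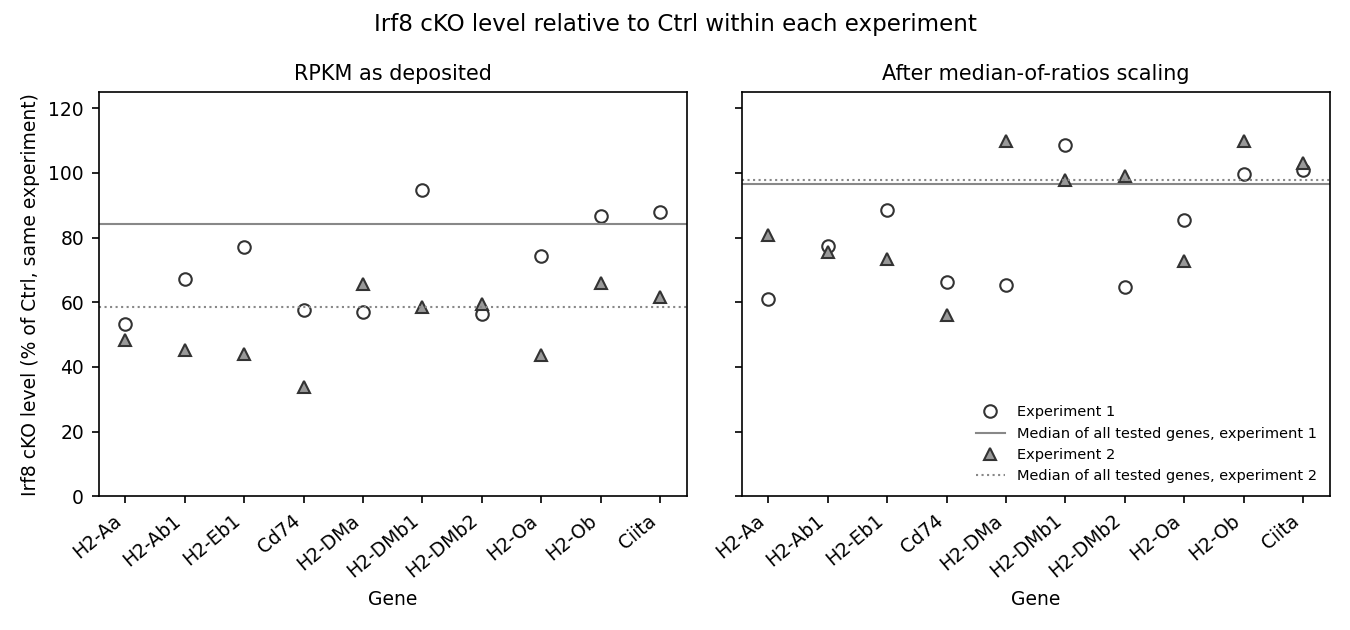
Irf8 cKO level as a percentage of Ctrl in the same experiment for the 10 genes, as deposited (left) and after median-of-ratios scaling (right), with circles for experiment 1, triangles for experiment 2 and lines for the median of all tested genes. After scaling Cd74 lies at 66.2% and 56.2%, while Ciita lies at 101% and 103%.

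In the authors' deposited table, which sets 1 library against 1 and carries its own scaling, H2-Aa had a log2 ratio of -0.705 (p = 0.0377, unadjusted) in experiment 1 and -0.324 (p = 0.356) in experiment 2. For Cd74 the authors' deposited table gives -0.586 (p = 0.146, unadjusted, 1 library against 1) and -0.853 (p = 0.0499). In each experiment 1 of the 10 genes was thus lower with a p under 0.05 in the authors' deposited table, against 2.87% and 1.95% of the tested genes. Ciita stood at 0.022 and 0.021 in the authors' deposited table. The medians of the 10 genes in the authors' deposited table were -0.294 and -0.186, and those of all tested genes -0.04 and -0.05.

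Ratios between members within a library do not depend on how that library was scaled. Cd74 over the sum of H2-Aa, H2-Ab1 and H2-Eb1 was 1.290 and 1.076 in the Irf8 cKO libraries, against 1.361 and 1.498 in the Ctrl libraries. That ratio was lower in both Irf8 cKO libraries than in either Ctrl library. Ciita per 100 RPKM of Cd74 was 1.07 and 1.89 against 0.702 and 1.03, and H2-Ob per 100 RPKM of Cd74 was 4.12 and 5.77 against 2.74 and 2.96. Both were higher in each Irf8 cKO library than in either Ctrl library, though for Ciita the closest values nearly met. Per 100 RPKM of H2-Aa, H2-Ab1, H2-Eb1 and Cd74 together, Ciita was 0.603 and 0.979 in the Irf8 cKO libraries against 0.405 and 0.619 in the Ctrl libraries, and there the groups overlapped.

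Among the exchange chains, H2-Ob over the sum of H2-DMb1 and H2-DMb2 was 0.588 and 0.479 in the Irf8 cKO libraries, against 0.406 and 0.431 in the Ctrl libraries. H2-Oa over H2-Ob was 0.328 and 0.323 against 0.382 and 0.488. In the Irf8 cKO libraries H2-Ob was thus higher relative to the H2-DM beta chains and to H2-Oa than in the Ctrl libraries, with no overlap. The sum of both H2-DO chains over the 3 H2-DM chains overlapped, at 0.517 and 0.444 against 0.365 and 0.463. H2-Oa over H2-DMa overlapped too, at 0.377 and 0.362 against 0.2895 and 0.546. So did H2-DMb1 over H2-DMb2, at 0.175 and 0.209 against 0.104 and 0.211. The 3 H2-DM chains over H2-Aa, H2-Ab1 and H2-Eb1 also overlapped, at 0.137 and 0.185 against 0.141 and 0.142. H2-Eb1 over H2-Aa was 0.299 and 0.181 against 0.206 and 0.199, and H2-Ab1 over H2-Aa was 0.828 and 0.611 against 0.654 and 0.653. In both chain ratios the Ctrl libraries were nearly equal, with Irf8 cKO 1 above and Irf8 cKO 2 below them. With 2 libraries against 2 an exact permutation test cannot give a 2-sided p under 0.333, and the ratios are given as a description, without a test. How often the ratios of other gene pairs keep the groups apart was not computed.

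**Figure D3:**
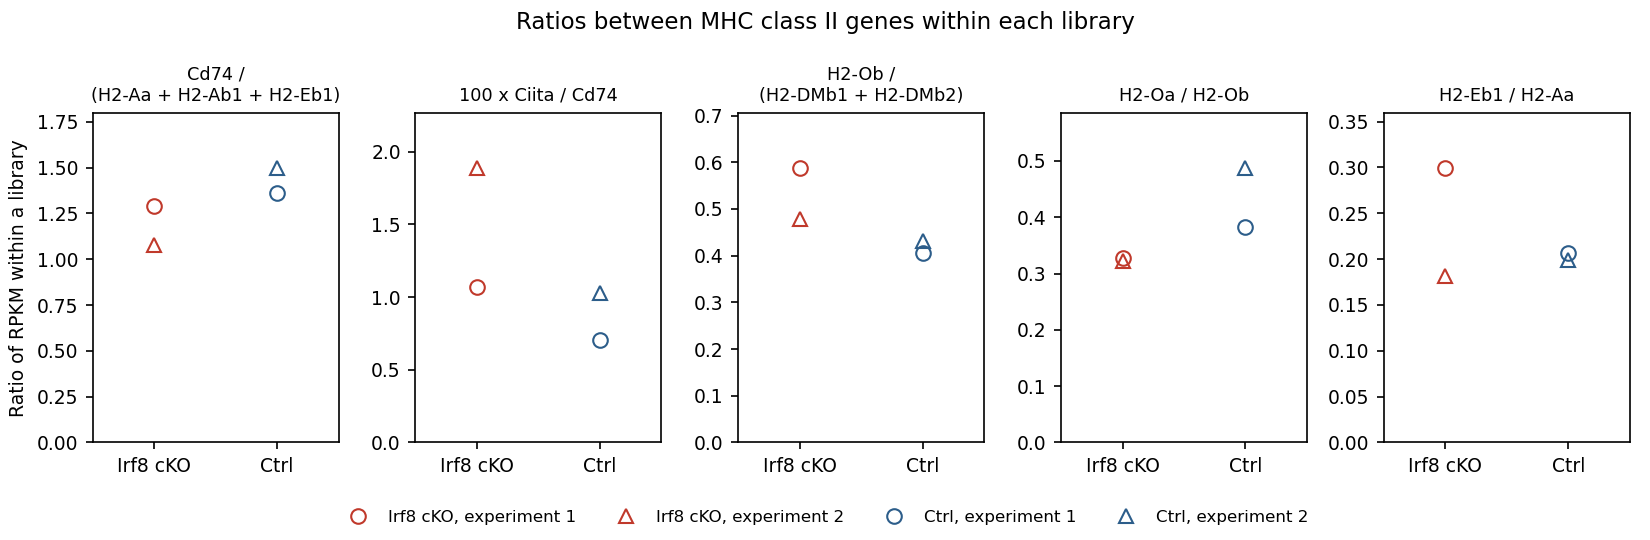
Ratios of RPKM between members within each library, on axes that start at 0, Irf8 cKO in red left of Ctrl in blue, with circles for experiment 1 and triangles for experiment 2 (n = 2 per group). Cd74 over the chains was 1.290 and 1.076 in Irf8 cKO against 1.361 and 1.498 in Ctrl, and H2-Eb1 over H2-Aa overlapped between groups.

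By position, 8 of the 10 genes lie together in the class II region, from H2-Oa (chr17:34092379-34095234) to H2-Eb1 (chr17:34305867-34316674) in mm10. Ciita lies on chromosome 16 (10489781 to 10527564, plus strand) and Cd74 on chromosome 18 (60803849 to 60812652, plus strand). Cd74, the 1 member past the threshold, thus lies outside the cluster. Within the cluster 5 other genes stand between the members. Among them Psmb8, which encodes an immunoproteasome protease, fell, with 9.76 and 5.90 RPKM against 24.1 and 18.0 (log2 ratio -1.34, adjusted p = 0.0176, limma; -0.91 after scaling, adjusted p = 0.304). The other 4 did not pass: Brd2, a bromodomain protein, had a log2 ratio of -0.59 (-0.17 after scaling), Psmb9, a further immunoproteasome subunit, -0.80 (-0.35), and the peptide transporter genes Tap1 and Tap2 -0.41 (-0.07) and 0.09 (0.35).

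The transcripts differed in length, and all genes showed a weak relation to it. Of the 10 transcripts, 9 were shorter than the median of tested genes, 2884 bases, and Ciita was longer (4732 bases, mean of its accessions). Tested genes shorter than the median had a median log2 ratio of -0.40 as deposited and -0.08 after scaling, and the longer ones -0.31 and 0.00069. At a mean of 10 RPKM or more, which 7 of the 10 reach, the median of 603 tested genes was -0.60 as deposited and -0.16 after scaling. The part of length and level in the members' values was not tested. An estimated 341 reads (H2-Oa in Irf8 cKO 2) to 85110 reads (Cd74 in Ctrl 1) lay behind each value.

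Outside the 10 genes, 32 of 41 listed symbols of class II presentation were tested. As deposited 2 were lower and 0 higher (limma; median log2 ratio -0.49, against -0.35 over all genes, of which 1.10% were called lower), and after scaling 0 and 0 (median -0.07, against -0.03). At an unadjusted p under 0.05, 11 were lower and 0 higher as deposited, where 18.6% of all tested genes were lower, and 4 lower and 1 higher (Irf8) after scaling, where 5.93% of all were lower. Both that fell are endosomal proteases. Ctsh, cathepsin H, measured 6.45 and 4.15 RPKM in the Irf8 cKO libraries and 16.3 and 15.7 in the Ctrl libraries (log2 ratio -1.46, adjusted p = 0.00408, limma). Lgmn, the asparagine endopeptidase legumain, measured 3.36 and 1.65 against 7.32 and 5.32 (log2 ratio -1.09, adjusted p = 0.0356). After scaling their log2 ratios were -1.04 and -0.74 (adjusted p = 0.185 and 0.343), with log2 ratios close to each other in both experiments. The groups were apart for both proteases as deposited.

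Of the 8 tested genes of endosomal processing, the other 6 did not pass. Ctss, the cathepsin S that trims the invariant chain, measured 7.06 and 4.70 RPKM in the Irf8 cKO libraries and 16.1 and 8.79 in the Ctrl libraries, with a log2 ratio of -0.93 (adjusted p = 0.141, limma; -0.52 after scaling, adjusted p = 0.492). Ifi30, the thiol reductase that opens disulfide bonds of antigens, measured 10.3 and 9.10 against 16.8 and 17.4. Sppl2a, the intramembrane protease that clears the last stub of the invariant chain, measured 2.35 and 0.977 against 3.63 and 2.86. After scaling 7 of these 8 genes were below Ctrl in both experiments, against 33.1% of all tested genes. Their median log2 ratio was -0.46, against -0.03 over all. This list was chosen with earlier results of these data known, so its counts are a description and not a test.

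The regulators upstream of the class II genes stood nearer to the median of all genes. Of 9 tested genes of the enhanceosome and its coactivators 0 passed by limma, and 0 had an unadjusted p under 0.05, with a median log2 ratio of -0.32 as deposited and -0.05 after scaling. Rfx5, the RFX subunit that binds the X box, measured 4.09 and 2.27 RPKM in the Irf8 cKO libraries and 4.24 and 4.80 in the Ctrl libraries. Nfya, the NF-Y subunit that contacts the Y box letters, measured 4.67 and 2.50 against 5.01 and 5.54. In both genes Irf8 cKO 2 was the low library. Of 7 tested factors known at Ciita promoters 0 passed by limma, with a median log2 ratio of -0.26 as deposited and 0.14 after scaling. At an unadjusted p under 0.05, 1 was lower as deposited, against 18.6% of all tested genes. After scaling 0 were lower and 1 was higher, where 282 of the 6447 tested genes were higher. The higher one is Irf8, the targeted gene, which is on this list and enters its medians. Sfpi1, which encodes the ETS factor PU.1, measured 5.70 and 4.94 against 6.33 and 6.79.

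Genes of class II turnover and of costimulation did not pass either, 0 of 4 and 0 of 3 tested by limma. At an unadjusted p under 0.05, 1 of each was lower as deposited, against 18.6% of all tested genes. After scaling 1 turnover gene and 0 costimulation genes were lower, against 5.93% of all. March1, the ubiquitin ligase that removes class II from the B cell surface, measured 4.73 and 2.86 RPKM in the Irf8 cKO libraries and 8.78 and 6.59 in the Ctrl libraries. Its log2 ratio was -0.87 (adjusted p = 0.155, limma) and -0.49 after scaling (adjusted p = 0.466). Cd83, which opposes that ligase, measured 11.3 and 6.86 against 13.5 and 12.1. Cd86, a ligand of CD28 on T cells, measured 6.03 and 4.81 against 8.39 and 8.45. The Irf8 cKO libraries were below both Ctrl libraries in these 3 genes as deposited, as they were in 44.7% of all tested genes. The same held for Cd40 and Icosl of the costimulation list. In the turnover list the groups overlapped for Cd44 (4.43 and 3.58 against 6.29 and 4.13 RPKM) and Mif (9.96 and 7.14 against 17.7 and 8.39).

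**Figure D4:**
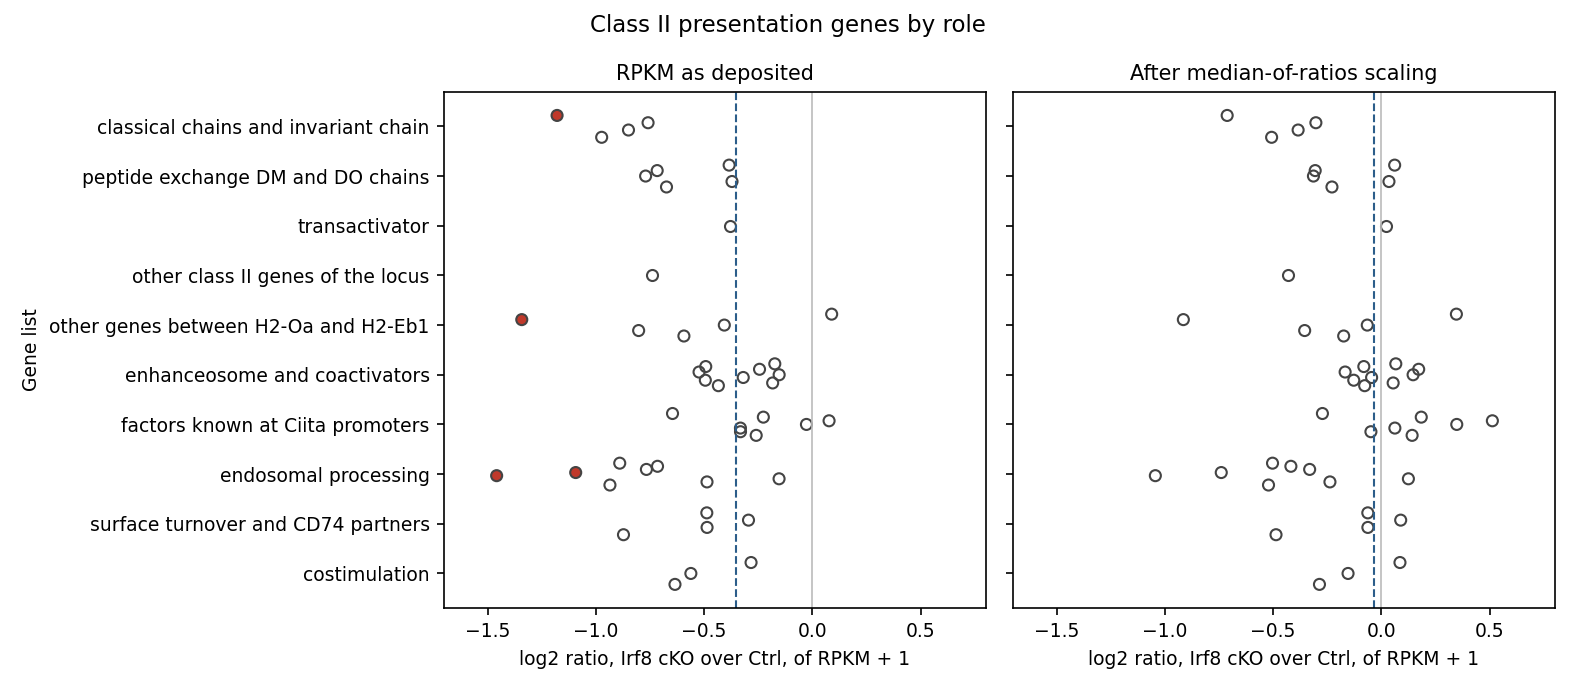
Log2 ratio of Irf8 cKO over Ctrl (RPKM + 1) for each tested gene of the class II lists, as deposited (left) and after median-of-ratios scaling (right), with genes past the adjusted threshold filled red and the median of all tested genes dashed. Cd74, Psmb8, Ctsh and Lgmn are filled on the left, and no gene on the right.

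The 5 genes nearest to the mean profile of H2-Aa, H2-Ab1, H2-Eb1 and Cd74 over the 4 libraries were Eaf2 (a transcription elongation factor), Ctsc (cathepsin C), Atp6v0e (a subunit of the vacuolar proton pump), Hspd1 (a mitochondrial chaperonin) and Dnaja1 (a cochaperone), at Euclidean distances of 0.0758 to 0.1004 on the centred log2(RPKM + 1) scale. Eaf2 measured 2.99 and 1.38 RPKM in the Irf8 cKO libraries and 5.43 and 4.38 in the Ctrl libraries. For comparison H2-Ab1, which enters the profile, lay at 0.0938, H2-DMa at 0.472, Ciita at 0.881 and H2-DMb1 at 1.07. By distance Ciita ranked 4617 and H2-DMb1 5728 of the 6447 tested genes. A profile over 4 libraries also follows what displaced all genes: after scaling the 5 ranked 19 to 230.

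Markers of the sorted cells were present in every library. Cd79a, of the B cell receptor complex, measured 59.3 and 41.6 RPKM in the Irf8 cKO libraries and 82.6 and 70.8 in the Ctrl libraries, and Bcl6, the repressor that defines germinal centre B cells, 30.5 and 23.4 against 38.7 and 37.7. Of 6 B cell markers 1 fell as deposited, Ms4a1, the surface protein CD20, with 49.0 and 23.4 against 96.4 and 67.6 RPKM. Its log2 ratio was -1.23 (adjusted p = 0.0356, limma), a call lost after scaling (-0.77, adjusted p = 0.447). Of 8 GC markers 0 passed. At an unadjusted p under 0.05 by limma, 3 of the 6 and 3 of the 8 were lower as deposited, against 18.6% of all tested genes. After scaling 1 of the 6 and 0 of the 8 were, against 5.93%. Other cells that express class II were little seen: over 8 dendritic cell markers the summed level was 1.07 and 0.990 RPKM against 1.37 and 1.79, most of it Flt3, with Itgax at 0 in all but Ctrl 2. The 10 macrophage and monocyte markers summed to 10.8 and 2.42 against 18.6 and 5.10, of which Lyz2 made 9.34 and 0.988 against 16.5 and 3.47, and Cd14 and C1qb were at 0 in all 4 libraries. The 5 neutrophil markers summed to 12.1 and 1.24 against 63.2 and 6.46. By limma 3 of 3 tested were lower as deposited, against 1.10% of all tested genes, and 0 of 3 after scaling. At an unadjusted p under 0.05 the 3 were lower after scaling too, against 5.93% of all. Naive B cell markers summed to 8.18 and 8.17 against 13.2 and 17.2 RPKM, plasma cell markers to 33.2 and 19.6 against 43.1 and 25.7, and T cell markers to 0.0267 and 0.0234 against 0 and 0.0977. Most of the naive sum was Fcer2a (5.04 and 5.94 against 10.2 and 14.3), while Cd38 measured 2.47 and 1.39 against 1.90 and 1.97. Most of the plasma cell sum was Igj (22.0 and 11.1 against 28.9 and 15.65), while Irf4 measured 4.1 and 3.6 against 4.5 and 3.5. The part of these markers in the members' values was not tested. In sorted bulk samples, fewer cells of a type and less RNA per cell cannot be told apart.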

How the data were processed

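Each of the 2 experiments has a table in which the authors deposited, per the file headers, RPKM by library and RefSeq gene, the log2 of their Irf8 cKO to Ctrl ratio and a p-value without adjustment. Per the labels' protocols, RNA from frozen cells (RNeasy) was amplified by Ovation RNA-Seq v2, and Nextera XT gave the libraries; amplification can distort levels. The series design text names Wardrobe for these samples. Builds mm9 and mm10 and the tools Cufflinks 2.2, TopHat2 2.0, DESeq and Cuffdiff are named, with no role, in the submitters' processing notes. Deposited starts equal those of RefSeq GRCm38.p6 (mm10) for 54.0% of the entries matched by symbol. Symbols that had turned into dates (27) were restored by accession.

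Irf8 cKO was compared with Ctrl by limma 3.58.1 in R 4.3.3 (variance trend, 2-sided) on log2(RPKM + 1) with the experiment as a block, which leaves 1 residual degree of freedom, over 6447 genes at 1 RPKM or more in at least 2 libraries. The threshold was a Benjamini-Hochberg adjusted p of 0.05. A ratio on this scale understates the change of low genes. The labels number the experiments, and deviations of same-numbered libraries correlated at 0.377. Nothing in the labels says that libraries came from separate animals, so p-values measure only the spread between these libraries, which may be technical. Size factors used genes above 0 in all 4 libraries.

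Read totals were estimated from single-transcript genes, where 73.1% to 76.6% of low values lay within 0.1 of a whole read, and no count model was run. Lengths came from GENCODE M21 and covered 97.6% of entries. Alternatives were the scaling, the block, the pseudocount, the filter, the variance trend and each library left out. All members were named, with genes of fixed lists, genes between the members, and the 5 nearest profiles. The members, lists and tests were chosen with earlier results of these data known. Figures came from matplotlib 3.10.9 and tables from pandas 2.3.3 under Python 3.11.15, and the fit was tested on simulated data.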

Additional observations from a re-analysis of the deposited data

How the results depend on the processing

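Under the 18 alternatives (2 of them added after seeing the data), H2-Aa, H2-Ab1, H2-Eb1, Cd74, H2-DMb2 and H2-Oa kept log2 ratios below 0 in all 18, and no member was called higher. The 18 are not separate checks of the sign: the block, the variance trend and the filter cannot change a log2 ratio. Neither can a left-out library or another pseudocount turn the sign where the groups of a gene do not overlap. Cd74 passed the threshold in 3 of 18, with log2 ratios of -1.65 to -0.56. The counts below, all by limma, give the members called lower, then all genes called lower and higher, where the fit as reported gave 1, 71 and 6. Median-of-ratios scaling gave 0, 0 and 0, also without a variance trend or with a pseudocount of 0.1, with 376 to 386 lower and 269 to 282 higher at an unadjusted p under 0.05. Scaling on genes at 1 RPKM or more in all 4 libraries gave 0, 26 and 15. Without the replicate block the counts were 0, 19 and 2, and with scaling as well 0, 2 and 1. A pseudocount of 0.1 gave 2, 49 and 5, and no variance trend 3, 277 and 6. No filter on low values gave 0, 0 and 0 over 15559 genes (1694 lower and 291 higher unadjusted), and the filter in all 4 libraries 1, 10 and 0. Leaving out each library, scaled or not, called 0 of the members, 0 to 1448 genes lower and 0 to 59 higher. The 0 came without Ctrl 1 as deposited (31 lower and 7 higher unadjusted) and the 1448 without Irf8 cKO 1. The cause of these changes was not tested.

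Signs turned for 4 members. H2-DMb1 had a log2 ratio of 0.0346 after scaling, also without the block or the trend, 0.0420 with a pseudocount of 0.1 as well and 0.0528 with the other size factors, and -0.69 to 0.39 with a library left out. H2-Ob had 0.0609, 0.0634 and 0.0823 in these settings and -0.60 to 0.15 with a library left out. Ciita had 0.0231, 0.0263 and 0.0418, and -0.55 to 0.24. H2-DMa had -0.98 to 0.0244 with a library left out. Where a library is left out, 1 group has a lone library, assumed to vary like the other group.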
